A study of Mus musculus with 16 samples.

Results

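The addition of CTLA4-Ig to an injection of allogeneic spleen cells was examined in splenic CD11b+ cells, over 734 genes of a NanoString panel of myeloid innate immunity that counts mRNA molecules with colour-coded probes and no amplification. The 8 mice compared, of 16 in the series, were chosen by title: 4 had the allogeneic cells and CTLA4-Ig without erythropoietin (EPO), and 4 had the allogeneic cells alone. All 8 were B6 mice that received 20000000 BALB/c spleen cells and were killed on day 7. The treated mice also had 150 µg of CTLA4-Ig i.p. once, on day 2. The other 8 mice were 4 naive and 4 given CTLA4-Ig with EPO. They entered the estimate of the spread and the sorting of genes by abundance, apart from the comparisons that name them. Neither age nor sex was given.

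The labels limit the comparison in several ways. They call the injected spleen cells T cell depleted and the route i.p., where the study's results text has i.v., and that text gives the profiled cells as CD11b+ and CD11c-, where the labels describe positive selection for CD11b alone. A protocol field also swaps the letter codes of the naive group and the group given cells alone. Groups here follow the titles, which the treatment fields match, and with the codes the comparison would be against the mice titled naive. Recovered counts summed over the panel to 728774, 700091, 843363 and 837715 in the mice given cells alone and to 739604, 690326, 912328 and 759739 in the CTLA4-Ig mice, so depth overlapped between the groups.

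CD80 and CD86, known together as B7, are ligands on antigen-presenting cells, macrophages and dendritic cells among them. They bind CD28 on T cells to give the second signal for activation, and they bind CTLA-4, an inhibitory receptor of activated and regulatory T cells, more tightly. CTLA4-Ig joins the outer part of CTLA-4 to an antibody tail, occupies CD80 and CD86, and so withholds costimulation through CD28. CD11b is the alpha chain of an integrin of monocytes, macrophages, neutrophils and NK cells, so a CD11b+ fraction of the spleen holds several cell types.

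All 4 mice given CTLA4-Ig had lower values than all 4 given cells alone for Ctla4 and Pdcd1, which encode inhibitory receptors of T cells. The same held for the chemokine receptors Cxcr3 and Xcr1, the cytokine Il10 and the lipopolysaccharide co-receptor Cd14. For the granule protease Gzma all 4 had higher values. None of these genes passed the test over all genes. In limma, 0 of the 734 genes (0%) had a Benjamini-Hochberg adjusted P below 0.05, and the lowest adjusted P was 0.25. Without adjustment 70 genes (9.54%) had P below 0.05, 36 higher (4.9%) and 34 lower (4.63%). Values of the groups did not overlap for 54 genes (7.36%), 25 higher (3.41%) and 29 lower (3.95%), and 34 of these 54 were among the 70. Over all genes the median difference was -0.00 log2 units, with 360 genes above 0 and 374 below. These are bulk samples, in which fewer cells of a type and less RNA per cell cannot be told apart.

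Other tools gave the same count of 0 at adjusted P. On recovered counts, limma-voom gave 48 genes at unadjusted P, 23 of them higher. An unmoderated equal-variance test of each gene gave 76, 34 of them higher. Scaling to the total count of each mouse lowered the unadjusted count to 41, 17 of them higher. Single mice moved these counts. Leaving out allo replicate 1 gave an unadjusted count of 36 and leaving out allo replicate 2 gave 45, with 16 and 22 higher. Leaving out CTLA4-Ig replicate 2 gave 44 genes, of which only 12 were higher, and leaving out CTLA4-Ig replicate 4 gave 39, with 20 higher. The share of genes higher (4.9%), used beside the lists, thus depends on single mice, on the tool and on the scaling. Genes without overlap numbered 88 without allo replicate 3 and 93 without CTLA4-Ig replicate 1, where fewer values have to separate. In 3 fits 1 gene had a limma Benjamini-Hochberg adjusted P below 0.05: Xcr1 without the naive mice (adjusted P = 0.0371), the membrane protein gene Emp1 without allo replicate 1 (adjusted P = 0.0128) and the mast cell chymase Cma1 without allo replicate 3 (adjusted P = 0.0439). Emp1 was named after its values were seen. Of the 70 genes, 19 stayed past unadjusted P with each of the 8 mice left out in turn, among them Ctla4, Cxcr3, Xcr1, Cd14, Gzma, Cxcl9, Cxcl10, Ccl22, Il1a, Il27, Cma1 and Smarcd3. Klrk1, Nkg7, Pdgfb, Abcc8, Ccl2, Ccl1, Col12a1, Cd247 and Ccnb2 did so in 5 to 7 of the 8 fits. Itgam, Ccr6, Mmp12, Cxcr2, Cdh5, Adamts14 and Mmp10 did in 4, and Icos, Tnfrsf4, Ccl19, Oscar, Vegfa, Cdc20 and Itgb2 in 3. Only 2 fits kept Fcer2a, Klf4 and Tyrobp past it, and 1 fit kept Pdcd1, Il10 and Mrc1. Differences close to 0 also moved with single mice. Of 110 named genes followed through the settings, 18 changed sign in some setting while groups followed the titles, at a size of 0.33 or less. A term for mouse numbers 1 and 2 against 3 and 4, chosen after seeing the data and fitted to the 8 mice alone, gave 106 genes at unadjusted P.

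**Figure D1:**
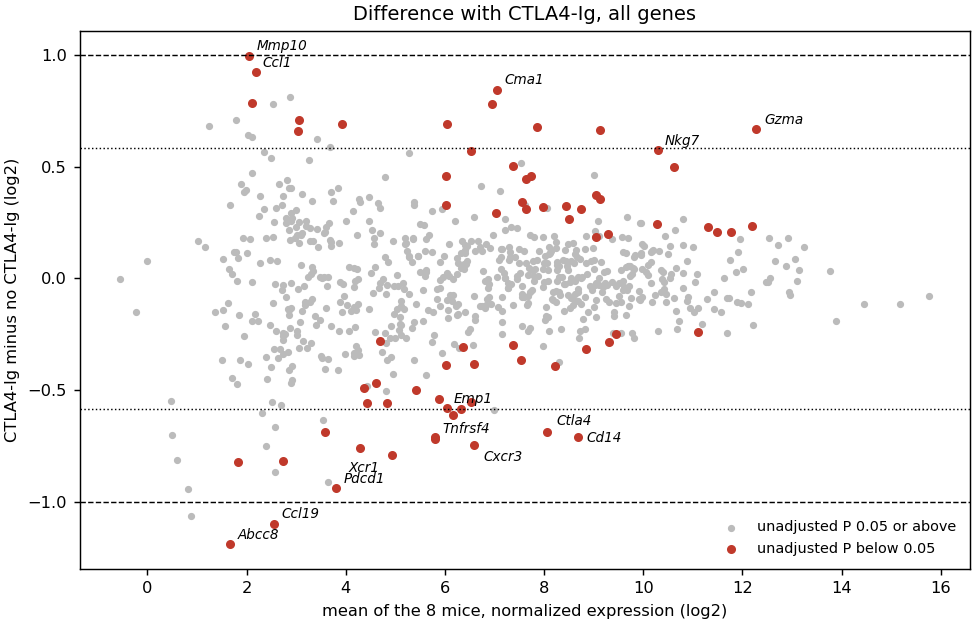
Mean log2 level over the 8 mice (horizontal) against the log2 difference, CTLA4-Ig minus cells alone (vertical), with 1 point for each of the 734 genes, red where unadjusted limma P was below 0.05, and lines at 1.5-fold (dotted) and 2-fold (dashed). Of all points, 45 lie at or beyond 1.5-fold and 3 at or beyond 2-fold.

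Of the 13 members of the CD28 and B7 family, 3 were lower at unadjusted P with CTLA4-Ig (Ctla4, Pdcd1 and Icos) and 0 higher. The median difference of the family was -0.08. With each mouse left out in turn, Ctla4 stayed past unadjusted P in 8 of 8 fits, Icos in 3 and Pdcd1 in 1. Ctla4 had 8.58, 8.64, 8.23 and 8.15 log2 units in the mice given cells alone and 7.88, 7.69, 7.71 and 7.57 in the CTLA4-Ig mice. Every CTLA4-Ig mouse lay below every mouse given cells alone, with means of 7.71 ± 0.13 and 8.40 ± 0.25 (SD, 4 mice each), and naive mice averaged 6.70 ± 0.14. The difference was -0.69 (95% interval -1.10 to -0.27, limma Benjamini-Hochberg adjusted P = 0.25).

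Pdcd1, which encodes the inhibitory receptor PD-1, had 4.75, 4.30, 3.92 and 4.14 with cells alone and 3.48, 3.36, 3.41 and 3.12 with CTLA4-Ig. These groups were apart as well, at a mean of only 21.9 counts. The difference of -0.94 had a wide interval, -1.85 to -0.03, from a spread shared with the naive mice, of which 1 had a count of 1. The interval was -1.57 to -0.30 without the naive mice and -1.35 to -0.52 from the 8 mice alone. Icos, an inducible costimulatory receptor, had 7.80, 8.04, 7.49 and 7.53 with cells alone and 7.40, 7.51, 7.25 and 7.24 with CTLA4-Ig. Its groups overlapped, since CTLA4-Ig replicate 2 was above allo replicate 3, and the difference was -0.36 (95% interval -0.73 to -0.00).

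Cd28 itself, the receptor that CTLA4-Ig deprives of its ligands, had 8.75, 9.18, 8.70 and 8.85 with cells alone and 8.81, 8.84, 8.66 and 8.83 with CTLA4-Ig. The groups overlapped and the difference was -0.08 (95% interval -0.46 to 0.30). Btla, an inhibitory receptor of lymphocytes, differed by -0.10 (95% interval -0.43 to 0.23).

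Transcripts of the targets of CTLA4-Ig were held to narrow intervals around no difference. Cd80 had 8.75, 8.88, 8.49 and 8.60 with cells alone and 8.70, 8.69, 8.71 and 8.65 with CTLA4-Ig. The CTLA4-Ig values all lay inside the range of the others, and the difference of 0.01 (95% interval -0.21 to 0.23) excludes a change of 1.17-fold or more. Cd86 had 9.43, 9.52, 9.51 and 9.60 with cells alone and 9.41, 9.48, 9.58 and 9.52 with CTLA4-Ig. Here too the groups lay on top of each other, with a difference of -0.02 (95% interval -0.22 to 0.18). Tests of equivalence ask whether a change as large as a stated fold can be rejected in both directions. Within 1.5-fold, their Benjamini-Hochberg adjusted limma P was 0.00055 for Cd80 and 0.0004 for Cd86. These are mRNA levels, and protein on the cell surface was not measured here.

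The other ligands of the family had intervals of varied width. Cd274, which encodes the PD-1 ligand PD-L1, had 10.24, 10.28, 10.14 and 10.23 with cells alone and 10.16, 10.15, 10.13 and 10.02 with CTLA4-Ig, and the difference was -0.11 (95% interval -0.37 to 0.16). Icosl, the ligand of ICOS, differed by -0.16 (-0.43 to 0.11), and Pdcd1lg2, the second PD-1 ligand, by 0.00 (-0.37 to 0.38). Vsir, the inhibitory molecule VISTA, differed by 0.13 (-0.09 to 0.34). Cd276 and Vtcn1, B7 homologues, had wider intervals of -0.72 to 0.68 and -0.59 to 1.10, and without allo replicate 2 the difference of Vtcn1 was -0.27 in place of 0.26. Of the 13 family members, all in the table, 3 were lower at unadjusted P (Ctla4, Pdcd1 and Icos) and 0 higher, where 4.63% of all genes were lower and 4.9% higher, and the median difference was -0.08 beside -0.00 over all genes. The 95% interval lay inside 2-fold for 10 of them and inside 1.5-fold for 8, beside 585 (79.7%) and 390 (53.1%) of all genes.

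**Figure D2:**
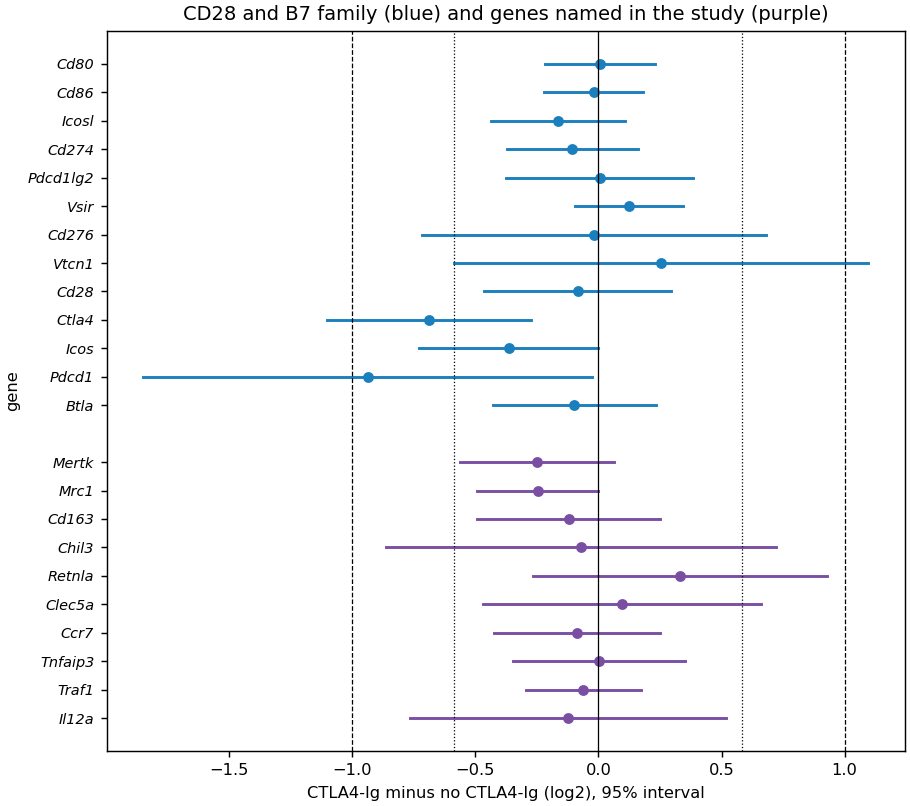
Log2 difference, CTLA4-Ig minus cells alone, with its 95% interval for the CD28 and B7 family (blue) and the genes named in the study's text (purple), with Cd80, a member of both, shown once in blue. Ctla4, Pdcd1, Icos and Mrc1 lie wholly below 0, with Cd80 and Cd86 among the narrowest.

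Outside this family, Tnfrsf4, which encodes the T cell costimulatory receptor OX40, had 6.74, 6.25, 5.75 and 5.90 with cells alone and 5.29, 5.73, 5.41 and 5.35 with CTLA4-Ig. The groups did not overlap, although allo replicate 3 and CTLA4-Ig replicate 2 were nearly level, and the difference was -0.72 (95% interval -1.35 to -0.08). Of the 10 genes of TNF family costimulation in the table it was the 1 lower at unadjusted P (4.63% over all genes), with 0 higher (4.9%) and a list median of 0.13. Cd40lg, the T cell ligand of CD40, had the highest difference of that list, 0.41 (-0.10 to 0.93).

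Cxcr3, the receptor through which activated T cells and NK cells follow interferon-induced chemokines, had 6.68, 7.14, 7.16 and 6.88 with cells alone and 5.99, 6.17, 6.44 and 6.30 with CTLA4-Ig. The groups were apart, with means of 6.97 ± 0.23 and 6.22 ± 0.19, and naive mice averaged 5.82 ± 0.26. The difference was -0.74 (95% interval -1.11 to -0.37). Il10, an anti-inflammatory cytokine, had 4.94, 4.51, 4.66 and 4.58 with cells alone and 4.39, 3.83, 3.70 and 3.74 with CTLA4-Ig. Every CTLA4-Ig value was below every other value, and the difference was -0.76 (95% interval -1.48 to -0.03) at a mean of 30.0 counts. In the list for regulation, 2 of 10 genes in the table were lower at unadjusted P (Il10 and Ctla4) and 0 higher, beside 4.63% and 4.9% of all genes, and the median was -0.05.

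Cxcl9 and Cxcl10, the interferon-induced ligands of CXCR3, were lower in mean alongside their receptor. Cxcl9 had 6.44, 6.95, 6.15 and 6.29 with cells alone and 5.73, 6.12, 5.88 and 5.67 with CTLA4-Ig, apart by a narrow margin between allo replicate 3 and CTLA4-Ig replicate 2. Cxcl10 had 5.54, 5.48, 5.98 and 5.69 with cells alone and 5.36, 5.18, 5.04 and 5.12 with CTLA4-Ig. The differences were -0.61 (95% interval -1.05 to -0.16) for Cxcl9 and -0.50 (-0.82 to -0.17) for Cxcl10. Ifng, the cytokine that induces both, had a difference in the other direction, 0.39 (-0.06 to 0.84), which was 0.21 without allo replicate 1 and 0.25 without CTLA4-Ig replicate 2.

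Of 29 genes in the table from the chemokine ligand list, which did not hold every ligand on the panel, 5 were lower at unadjusted P (Ccl19, Ccl22, Cxcl9, Ccl2 and Cxcl10) and 0 higher, with a list median of -0.09. Over all 734 genes, 34 (4.63%) were lower and 36 (4.9%) higher. Ccl19, which guides cells that carry CCR7 into T cell zones, had 3.25, 3.30, 2.51 and 3.33 with cells alone and 2.29, 1.66, 1.82 and 2.23 with CTLA4-Ig. These values were apart, but they rest on a mean of 9.38 counts, and the difference was -1.10 (95% interval -2.07 to -0.12). Ccl22, a chemokine of dendritic cells and macrophages, differed by -0.71 (-1.20 to -0.22), and the monocyte attractant Ccl2 by -0.58 (-1.03 to -0.14). The most abundant ligand, Ccl5, differed by 0.14 (-0.21 to 0.50), and by -0.0081 without allo replicate 1. Ccl1, a ligand outside the list, was higher at unadjusted P, by 0.92, at a mean of 7.38 counts, and by 0.55 without allo replicate 2.

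Among 19 chemokine receptors in the table, 2 were higher at unadjusted P, Cxcr2 (0.69) among them, and 3 were lower, Xcr1, Cxcr3 and Ccr6 (-0.39), beside 4.9% and 4.63% of all genes. CXCR2 is a receptor of neutrophils, and CCR6 one of B cells and some T cells. Cxcr2 had 6.34, 5.71, 5.20 and 5.56 with cells alone and 6.23, 7.32, 5.85 and 6.16 with CTLA4-Ig, so the groups overlapped and CTLA4-Ig replicate 2 was the highest, without which the difference was 0.38. The median of the list was -0.03. Of 16 inflammatory cytokines in the table, 2 were lower at unadjusted P, Il1a by -0.49 and Il27, at a mean of 5.62 counts, by -0.82, and 0 were higher, beside the same shares of all genes. Their list median was -0.13.

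Genes of NK and cytotoxic cells stood in the other direction. Gzma, a granule protease of these cells, had 11.40, 11.97, 12.22 and 12.15 with cells alone and 12.48, 12.97, 12.36 and 12.60 with CTLA4-Ig. Every CTLA4-Ig mouse was above every mouse given cells alone, with means of 12.60 ± 0.27 and 11.94 ± 0.37, and naive mice averaged 12.52 ± 0.27. The difference was 0.67 (95% interval 0.25 to 1.08, limma Benjamini-Hochberg adjusted P = 0.25).

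Klrk1, which encodes the activating receptor NKG2D, had 9.91, 10.62, 10.59 and 10.41 with cells alone and 10.82, 11.26, 10.63 and 10.81 with CTLA4-Ig. CTLA4-Ig replicate 3 stood barely above allo replicate 2, so the groups were only just apart, and the difference was 0.50 (95% interval 0.08 to 0.92). Nkg7, a granule membrane protein, overlapped between groups and differed by 0.57 (0.13 to 1.02), and by 0.35 without allo replicate 1. Cd244, a receptor of NK cells and myeloid cells, differed by 0.18 (-0.06 to 0.42). Of 13 NK and cytotoxic markers listed, 4 were in the table, 3 of them higher at unadjusted P, beside 36 (4.9%) of all genes, and their median was 0.54 beside -0.00. Their summed normalized counts, with Gzma the most abundant, were 5008, 7441, 8491 and 7931 with cells alone and 9667, 13161, 9147 and 10552 with CTLA4-Ig. The part of NK cell number in the differences of these 4 genes was not tested.

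Markers of T cells and B cells were counted too, and whether such cells came through the selection for CD11b was not tested. Of 18 T cell markers listed only 3 were in the table, and their summed normalized counts were 1115, 1283, 1048 and 1056 with cells alone and 1041, 1090, 985 and 1057 with CTLA4-Ig. The sums overlapped while the 3 genes went different ways: Ctla4 was lower, Cd28 differed by -0.08, and Cd247, the zeta chain of the T cell and NK receptor complexes, was higher by 0.32 (95% interval 0.05 to 0.60). The 3 B cell markers in the table summed to 3552, 3172, 3299 and 2950 with cells alone and to 2981, 3214, 3322 and 2815 with CTLA4-Ig, again with overlap. Ms4a1, which encodes CD20 and is the most abundant of them, differed by -0.09 (-0.36 to 0.18), and Fcer2a, the low-affinity IgE receptor, by 0.33 (0.02 to 0.64).

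**Figure D3:**
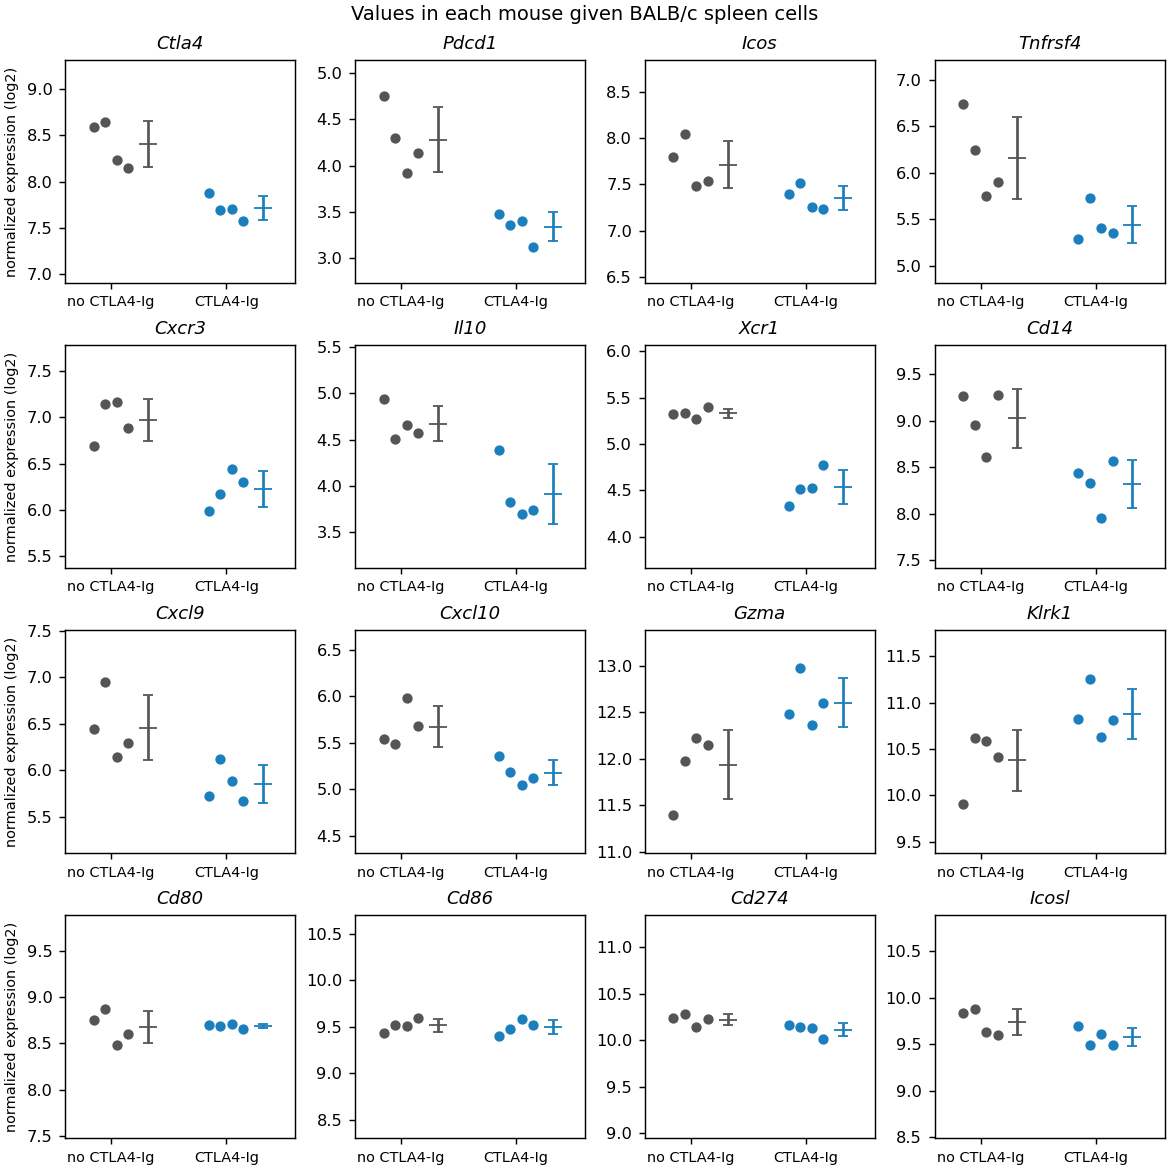
Log2 level of 16 genes in each of the 8 mice (points, by group), with the mean and SD of each group (bars), and every panel spanning 2.4 log2 units. The points of Ctla4, Pdcd1, Tnfrsf4, Cxcr3, Il10, Xcr1, Cd14, Cxcl9, Cxcl10, Gzma and Klrk1 do not overlap between groups, while those of Icos, Cd80, Cd86, Cd274 and Icosl do.

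Xcr1, the chemokine receptor of cross-presenting dendritic cells, had 5.33, 5.33, 5.27 and 5.39 with cells alone and 4.34, 4.52, 4.52 and 4.78 with CTLA4-Ig. The mice given cells alone were close together and all above the CTLA4-Ig mice, and the difference was -0.79 (95% interval -1.23 to -0.35) at a mean of 46.8 counts. Its limma Benjamini-Hochberg adjusted P was 0.25 in the fit of 16 mice. Of 9 conventional dendritic cell markers in the table Xcr1 was the 1 past unadjusted P, beside 9.54% of all genes, and their median was -0.09. Batf3, a transcription factor that the same dendritic cells need, differed by 0.12 (-0.26 to 0.51).

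Cd14, the lipopolysaccharide co-receptor of monocytes and macrophages, had 9.27, 8.96, 8.61 and 9.28 with cells alone and 8.43, 8.33, 7.95 and 8.56 with CTLA4-Ig. The groups were apart by a small margin, with means of 9.03 ± 0.32 and 8.32 ± 0.26, and naive mice averaged 10.52 ± 0.31. The difference was -0.71 (95% interval -1.10 to -0.32, limma Benjamini-Hochberg adjusted P = 0.25). Of 7 classical monocyte markers in the table, 1 (Cd14) was lower and 1 higher at unadjusted P, beside 4.63% and 4.9% of all genes, and their median was -0.00.

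Itgam, which encodes CD11b, had 8.80, 8.50, 9.16 and 8.95 with cells alone and 9.10, 9.28, 9.16 and 9.36 with CTLA4-Ig. It was counted at 476 or more in every mouse, so the marker used for selection was present in all, and the groups overlapped. Means were 8.85 ± 0.28 with cells alone, 9.22 ± 0.12 with CTLA4-Ig and 11.42 ± 0.15 in naive mice, and the difference between the groups compared was 0.37 (95% interval 0.04 to 0.71). Itgb2, the partner chain of CD11b, differed by 0.25 (0.00 to 0.49), the signalling adaptor Tyrobp by 0.24 (0.00 to 0.47, or 0.15 without CTLA4-Ig replicate 2) and the growth factor receptor Csf1r by -0.00 (-0.28 to 0.28). Of 6 defining CD11b+ myeloid markers in the table, 3 were higher and 1 (Cd14) lower at unadjusted P, beside 4.9% and 4.63% of all genes, with a median of 0.19. They summed to 9344, 8496, 9099 and 9906 with cells alone and to 9975, 11411, 9869 and 9847 with CTLA4-Ig, with Tyrobp the most abundant. Whether the purity of the fraction had a part in other differences was not tested.

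The 10 neutrophil markers in the table had a median of -0.03, and Cxcr2 was the 1 past unadjusted P, beside 9.54% of all genes. S100a9, the most abundant of them, had a 95% interval of -0.89 to 0.86, so a change approaching 2-fold in either direction is not excluded. Sums of these markers varied within the groups, at 36646, 14521, 21507 and 13227 with cells alone and 25235, 23997, 14964 and 15902 with CTLA4-Ig. Cma1 had 6.27, 6.34, 7.30 and 6.61 with cells alone and 7.47, 7.75, 7.25 and 7.43 with CTLA4-Ig. Allo replicate 3 lay in the CTLA4-Ig range, and the difference was 0.84 (95% interval 0.37 to 1.31). It was the highest of 8 basophil and mast cell markers in the table and the 1 past unadjusted P, again beside 9.54%. The median of that list was -0.16, with 6 of 8 below 0, where 374 of all 734 genes were. The lowest was the tryptase Tpsb2 at -0.94 (-2.07 to 0.19).

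The other differences of largest size sat mostly in genes with few counts. Above were Mmp10 (1.00, mean of 7.00 counts), Oscar (0.78), Adamts14 (0.78, mean of 196 counts), Cdh5 (0.71) and Smarcd3 (0.69), and below were Abcc8 (-1.19) and Col12a1 (-0.82). Some of these sizes depended on a single mouse: Mmp10 differed by 0.62 without CTLA4-Ig replicate 2, Adamts14 by 0.49 without allo replicate 1 and Col12a1 by -0.38 without CTLA4-Ig replicate 4. MMP10 and ADAMTS14 are extracellular proteases, OSCAR is a collagen receptor of myeloid cells and cadherin 5 is an adhesion molecule of endothelium. SMARCD3 is a subunit of chromatin remodelling complexes, ABCC8 a regulatory subunit of potassium channels and COL12A1 a collagen chain. Abcc8 had 1.87, 2.92, 2.34 and 1.91 with cells alone and 1.80, 0.66, 0.82 and 1.00 with CTLA4-Ig, without overlap at a mean of 5.25 counts. Of the 70 genes at unadjusted P, 12 had a mean below 25 counts. Among 15 genes in the table from the list for matrix and wound response, which did not hold Mmp10, Adamts14 or Col12a1, 3 were higher at unadjusted P (Mmp12 by 0.68, Pdgfb by 0.57 and Vegfa by 0.31), beside 4.9% of all genes, 0 were lower, and the median was 0.11. Without allo replicate 1, Pdgfb differed by 0.28.

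Of 20 proliferation genes listed only 4 were in the table. All 4 had a difference below 0, where 374 of all 734 genes did. At unadjusted P 2 were lower (Ccnb2 and Cdc20) and 0 higher, beside 4.63% and 4.9% of all genes. Ccnb2, a mitotic cyclin, had 6.58, 5.98, 6.15 and 5.91 with cells alone and 6.11, 5.68, 5.49 and 5.17 with CTLA4-Ig, with overlap and a difference of -0.54 (95% interval -1.02 to -0.07). Cdc20, an activator of the anaphase-promoting complex, differed by -0.39 (-0.75 to -0.02), the topoisomerase Top2a by -0.37 (-0.84 to 0.09) and the mitotic regulator Birc5 by -0.19 (-0.80 to 0.41). Without CTLA4-Ig replicate 4, Top2a differed by -0.23 and Birc5 by -0.041. Their median of -0.38 was the lowest of the 33 lists with 3 or more genes in the table, as that of the NK and cytotoxic markers was the highest.

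Markers of red pulp macrophages, the resident phagocytes that clear old red cells, had a median of -0.19. Of 11 in the table, 10 were below 0, where 374 of all 734 genes were. Only Mrc1, the mannose receptor, was past unadjusted P, at -0.25 (95% interval -0.49 to -0.00), where 4.63% of all genes were lower. Vcam1, an adhesion molecule of these cells and the most abundant of the list, had 11.91, 11.70, 11.67 and 11.92 with cells alone and 11.58, 11.60, 11.59 and 11.46 with CTLA4-Ig. Those values were apart, by a difference of -0.25 (-0.50 to 0.01), and the complement component C1qb was apart as well, by -0.24 (-0.49 to 0.02), where 3.95% of all genes were apart and lower. Marco, a scavenger receptor of marginal zone macrophages, was the 1 above 0, by 0.51 (-0.08 to 1.11). The list's summed normalized counts were 10906, 9327, 9648 and 11222 with cells alone and 8681, 9019, 9528 and 8535 with CTLA4-Ig.

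Genes for the uptake of apoptotic cells, which share several members with that list, had a median of -0.24, with 8 of 9 below 0 and 1 lower at unadjusted P, where 374 of all 734 genes were below 0 and 4.63% lower. Mertk, a receptor kinase for this uptake, had 7.34, 7.09, 7.26 and 7.39 with cells alone and 7.02, 6.84, 7.27 and 6.96 with CTLA4-Ig. CTLA4-Ig replicate 3 lay within the other group, and the difference was -0.25 (95% interval -0.56 to 0.07). Of 15 genes of alternative activation in the table, 2 were lower at unadjusted P, Mrc1 and the transcription factor Klf4 (-0.24), and 0 were higher, beside 4.63% and 4.9% of all genes, and the median was 0.10.

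Of the 11 genes that the study's text names, 1 was lower at unadjusted P (Mrc1) and 0 higher, beside 4.63% and 4.9% of all genes. Since the study picked these genes on the same samples, their count is not independent evidence of a direction. Every interval lay inside 2-fold, beside 79.7% of all genes, and 7 lay inside 1.5-fold, beside 53.1%. The widest were those of the alternative activation genes Chil3, -0.07 (95% interval -0.86 to 0.72), and Retnla, 0.33 (-0.27 to 0.93, or 0.14 without allo replicate 4), and of Il12a, a subunit of interleukin-12, -0.12 (-0.76 to 0.52). Narrower were the haemoglobin receptor Cd163, -0.12 (-0.49 to 0.25), the homing receptor Ccr7, -0.09 (-0.42 to 0.25), and the NF-kB regulators Tnfaip3, 0.00 (-0.35 to 0.35), and Traf1, -0.06 (-0.29 to 0.17). Clec5a, an activating lectin receptor of myeloid cells, differed by 0.10 (-0.47 to 0.66), and by -0.032 without allo replicate 2.

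Antigen presentation genes had many counts and mostly narrow intervals. Cd74, the invariant chain of MHC class II and the most abundant of its list, had 15.61, 15.73, 15.93 and 15.96 with cells alone and 15.52, 15.55, 15.98 and 15.86 with CTLA4-Ig. The groups overlapped, with a difference of -0.08 (95% interval -0.36 to 0.20). Of 10 MHC class II genes measured, 0 were past unadjusted P (9.54% of all genes), 9 had an interval inside 1.5-fold (53.1% of all genes), and the median was -0.09. Of 11 MHC class I genes, 0 were past it and 10 had an interval inside 1.5-fold, beside the same shares, and the median was -0.01. H2-K1, a class I heavy chain and the most abundant of these, differed by 0.03 (-0.16 to 0.22).

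Lists of signalling genes had medians as close to 0. Of 10 NF-kB pathway genes measured, 0 were past unadjusted P, beside 9.54% of all genes, and 9 had an interval inside 1.5-fold, beside 53.1%, with a median of -0.01. The lowest was Nfkbia, the inhibitor that NF-kB itself induces, at -0.27 (95% interval -0.66 to 0.13), or -0.072 without allo replicate 3. Of 5 type I interferon response genes 0 were past it (9.54% of all genes), with a median of -0.10, and of 11 interferon gamma response genes 2 were lower, Cxcl9 and Cxcl10, beside 4.63% of all genes, with a median of -0.06. Of 9 follicular helper genes 2 were lower (Pdcd1 and Icos) and 0 higher, again beside 4.63% and 4.9% of all genes, and the median was 0.00. Cxcl13, the chemokine of B cell follicles, differed by 0.56 (-0.44 to 1.56), and by 0.32 without CTLA4-Ig replicate 3. The medians of 29 of the 33 lists were within 0.2 log2 units of 0.

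**Figure D4:**
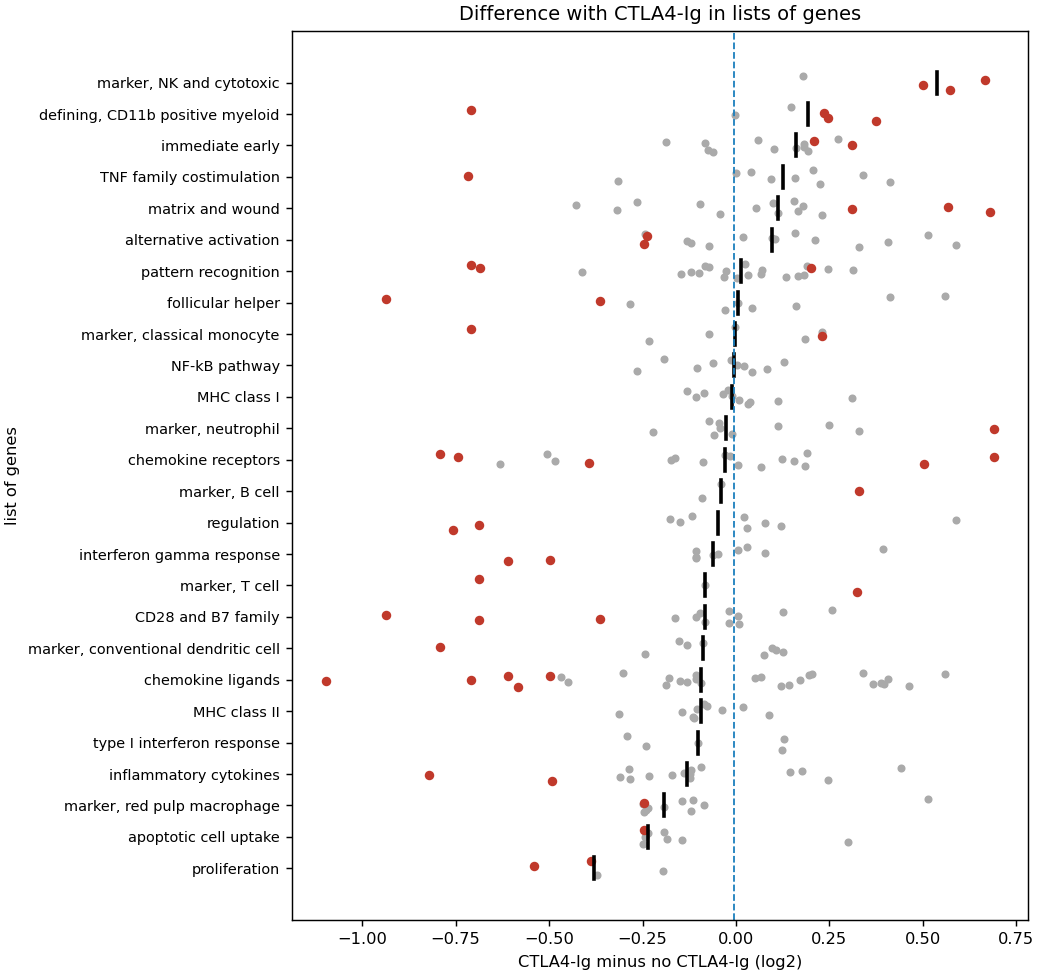
Log2 difference, CTLA4-Ig minus cells alone, of the genes of each list (points, red where unadjusted limma P was below 0.05), with the median of the list (black bar) and of all genes (blue dashed line). The NK and cytotoxic markers have the highest median, 0.54, and the proliferation genes the lowest, -0.38.

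A test that calls nothing leaves the question of what size of change these mice can exclude, which the 95% intervals answer gene by gene. The distance from a difference to the end of its interval had a median of 0.38 log2 units, quartiles of 0.27 and 0.61, a smallest value of 0.15 (Tapbp) and a largest of 3.09 (Irf8). A change of 2-fold or more in either direction lay outside the interval for 585 genes and one of 1.5-fold or more for 390, the shares given with the CD28 and B7 family. Only 119 genes (16.2%) excluded a change of 1.25-fold, while 706 (96.2%) excluded 3-fold and 725 (98.8%) 4-fold. For the median gene, the smallest change excluded in both directions was 1.46-fold.

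Those intervals hold for 1 gene at a time. With intervals widened to hold for all 734 genes at once by the Bonferroni rule, 301 genes (41.0%) excluded 2-fold, 44 (6.00%) excluded 1.5-fold, 492 (67.0%) excluded 3-fold and 576 (78.5%) excluded 4-fold. Equivalence tests, with limma P values adjusted by Benjamini-Hochberg over all genes, placed 619 genes (84.3%) within 2-fold and 393 (53.5%) within 1.5-fold at an adjusted P below 0.05. With 4 mice against 4, the smallest P that a two-sided exact permutation test of 1 gene can reach is 0.0286.

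Precision went with abundance. The genes were split by mean count over the 16 mice into 4 sets of like size, numbered from the lowest counts up. In the set with the lowest counts (1.19 to 22.2), 74 of 183 excluded 2-fold and 4 excluded 1.5-fold, and the median gene excluded 2.14-fold. In the next set (22.3 to 156) the median gene excluded 1.51-fold, and 162 of 184 excluded 2-fold. For the upper sets (158 to 648, and 655 to 56839) the medians were 1.31-fold and 1.30-fold, and 172 of 183 and 177 of 184 genes excluded 2-fold. Pdcd1, Il10 and Il12a are among the genes with low counts and wide intervals, whereas Cd80, Cd86 and Cd274 belong to the upper sets.

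**Figure D5:**
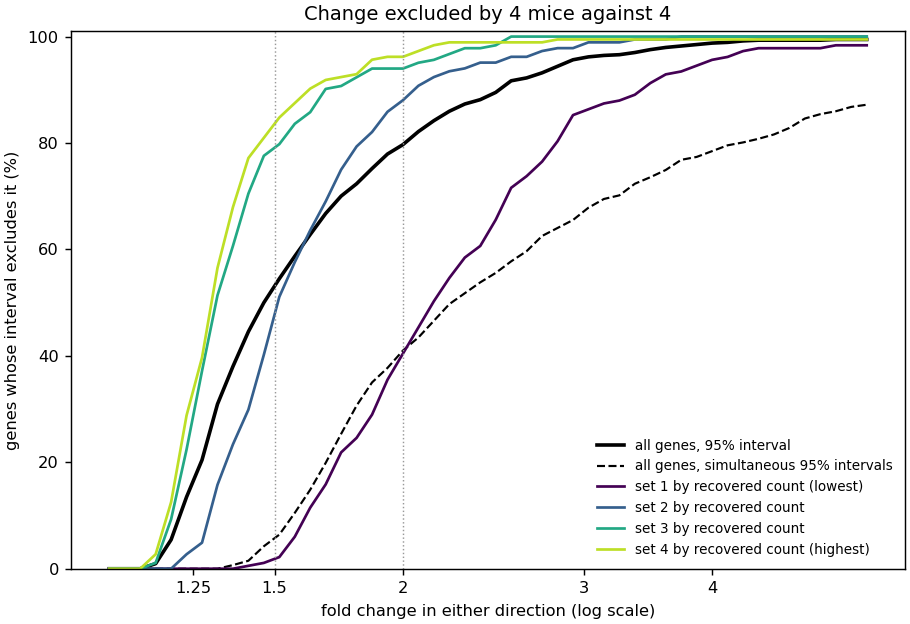
Percent of genes whose interval excludes a change of each fold or more (horizontal axis), for 95% intervals of all genes, for simultaneous intervals, and for the 4 sets of genes by recovered count. At 2-fold the line for all genes stands at 79.7% and that for simultaneous intervals at 41.0%, while the set with the lowest counts stands at 40.4%.

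The same spread sets what could have been called. A gene that was alone in changing would have had to reach 0.05 divided by the number of genes, and for 80% power at that threshold the change had to be 2.26-fold in the median gene. It was 5.40-fold in the set of genes with the lowest counts, then 2.48-fold, 1.83-fold and 1.75-fold in the sets above. At an unadjusted threshold of 0.05 the median was 1.45-fold. The sizes of the differences of Ctla4, Cxcr3, Cd14 and Gzma lay between 1.45-fold and 2.26-fold.

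Irf8, a transcription factor of monocytes and dendritic cells, had the widest interval of all. Its values were 9.62, 9.82, 10.16 and 9.97 with cells alone and 9.87, 10.09, 9.99 and 10.05 with CTLA4-Ig. The 8 mice were close together, yet the interval ran from -2.98 to 3.19, from a spread shared with the naive mice, of which 1 had a count of 1. Without the naive mice it was -0.17 to 0.38, and from the 8 mice alone -0.19 to 0.40. At the other end, Tapbp, which loads peptides onto MHC class I, differed by -0.03 (95% interval -0.18 to 0.11) and excluded a change of 1.13-fold. The genes Laptm5, Vav1, Psmb8 and Glg1 were the next narrowest, and Cyr61, Adcyap1r1, Cyp1b1 and Serinc2 followed Irf8 among the widest. From the 8 mice alone, intervals were narrower for 352 of the 734 genes.

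The other steps of the design gave the scale of this difference in the same fit, with the same median interval. The median size of a difference was 0.14 log2 units for CTLA4-Ig, 0.48 for EPO added to CTLA4-Ig and 0.79 for allogeneic cells against naive mice. Genes at or beyond 2-fold numbered 3, 162 and 296 in that order, and 375 genes (51.1%) with EPO and 516 (70.3%) with allogeneic cells had a limma Benjamini-Hochberg adjusted P below 0.05. For CTLA4-Ig mice against naive mice the count was 506 (68.9%). These comparisons share mice with each other, and the differences between their counts were not tested. The 3 genes past 2-fold with CTLA4-Ig were Abcc8, Ccl19 and the collagen Col10a1 (-1.06, mean of 3.38 counts), the last chosen after its values were seen.

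Correlations over genes between single mice lay between 0.983 and 0.988 within the groups and between 0.981 and 0.988 across them, given as a description since genes are not independent replicates. The first principal component of the 8 mice, with 28.9% of the variance, had values of -7.78, -4.54, 4.51 and 4.73 with cells alone and -3.48, -4.41, 6.88 and 4.09 with CTLA4-Ig. It separated mice 1 and 2 from mice 3 and 4 in both groups, and whether these mice were handled together is not stated. The second component, with 16.8% of the variance, had values of 3.09, 4.69, 1.43 and 3.65 with cells alone and -0.82, -8.61, -1.90 and -1.52 with CTLA4-Ig. On it the groups did not overlap, and CTLA4-Ig replicate 2 lay farthest from the rest. The median SD of a gene was 0.23 with cells alone and 0.21 with CTLA4-Ig.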

How the data were processed

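The authors imported raw NanoString counts into limma and deposited normalized log2 values, 1 column per mouse. Each column is the log2 of whole counts times 1 factor, and neither its basis nor any background subtraction is stated. Counts were recovered by undoing that factor, and 0.749% of values in the 8 mice are at a count of 1. No gene was filtered out. Means of 4 groups were fitted over the 16 mice with limma 3.58.1 in R 4.3.3, with moderated two-sided tests, 95% intervals and Benjamini-Hochberg adjustment over 734 genes. Power came from the noncentral t with each gene's moderated spread. The procedure was also run on simulated data, and the outcome is not given here. Figures used Python 3.11.15 and matplotlib 3.10.9.

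Genes named are the 8 largest differences each way among genes at unadjusted P below 0.05, the CD28 and B7 family, the study's genes, the 5 narrowest and 5 widest intervals, and in each described list the highest, lowest and most abundant member. Other genes, such as further list members past unadjusted P, were chosen after seeing their values. A few genes that the rule or a count takes in are not reported here by name. The members and lists were chosen with earlier results of these data known. Alternatives covered scaling, filtering, moderation, groups fitted, the letter codes and each mouse left out.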

Additional observations from a re-analysis of the deposited data

Results flagged for a closer look

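For each of 248 groups of 4 values behind named genes and summed markers, the gap between the lowest or highest mouse and its nearest neighbour was divided by the group's range. In 11 groups this ratio was above Dixon's 95% critical value, where chance alone passes about 1 group in 20. Most of the mice that stood apart had few counts or lay close to the rest in absolute terms.

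With cells alone, allo replicate 3 was low in Ccl19 (ratio 0.8995). Allo replicate 1 was low in Laptm5 (0.8352), with 12.47 beside 12.53, 12.55 and 12.54, and in the receptor gene Tnfrsf14 (0.9145), with 7.42 beside 7.82, 7.85 and 7.84. It was high in the sum of the 3 granulocyte precursor markers (0.8585), with 740 beside 276, 342 and 284 normalized counts.

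With CTLA4-Ig, replicate 2 was low in Il12a (0.9099), with 4.66 beside 5.15, 5.19 and 5.20, and high in the sum of the defining CD11b+ markers (0.9183). Replicate 3 was low in Cd28 (0.8413), and replicate 4 was low in Vcam1 (0.8497). Near the floor, replicate 4 was high in Adcyap1r1 (0.867) and Cyr61 (0.867), each 2.42 beside -0.52, -0.34 and -0.76, and replicate 1 was high in Cyp1b1 (0.8612), with 2.29 beside -0.34, -0.76 and -0.58.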

How the results depend on the processing

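Counts kept within 1.5 times their main value under trended, robust and weighted moderation, median centring and quantile normalization. They also did without the 25% of genes with least signal and in an unmoderated equal-variance test of each gene. So did a fit of the 2 groups and terms for mouse numbers in 16 or 12 mice, the terms chosen after seeing the data. Under limma-voom the totals kept within it, but genes higher at unadjusted P numbered 23, beside 36 in the main fit. Scaling to total counts gave 41 genes at unadjusted P, the mouse-number term in the 2 groups alone 106, and a minimum of 1.5-fold 26. The last follows from its own construction, and the cause of the others was not tested. Leaving out each mouse in turn gave 0 to 1 genes at adjusted P, 36 to 69 at unadjusted P and 63 to 93 without overlap. Without the naive mice 1 gene was called. Simultaneous intervals, wider by construction, gave a median reach of 0.98 log2 units, with 301 genes inside 2-fold and 44 inside 1.5-fold. While groups followed the titles, 14 of the 70 genes at unadjusted P stayed past it in every one of 22 settings, 19 did so with each of 8 mice left out, and 0 changed sign. Signs were followed for 110 named genes, which leave out Csf1r, C1qb, Tpsb2 and Col10a1. Of the 110, 18 changed sign in some such setting, at a size of 0.33 or less. Samples share only a number between groups: with the replicate as a block, 0 genes were called at adjusted P and 77 at unadjusted P. Deviations of mice of the same number correlated at 0.293, 0.0156, 0.189 and 0.0406, and 3 of 8 mice correlated best with their own number. Genes with fewer counts had wider intervals. With the groups as the letter codes have them, the CTLA4-Ig mice are set against the mice titled naive. That gave 506 genes at adjusted P, 521 at unadjusted P and 458 without overlap, 285 intervals inside 2-fold and 127 inside 1.5-fold, and equivalence for 274 and 81 genes. The log2 difference then had the other sign for 47 named genes that were past unadjusted P by title or past adjusted P by code: Cxcr2 (-4.78), Smarcd3 (-0.23), Cdh5 (-0.42), Adamts14 (-0.078), Oscar (-0.95), Cma1 (-0.21), Ccl1 (-0.60), Mmp10 (-1.49), Pdcd1 (1.01), Cxcr3 (0.41), Cd80 (-0.62), Cd28 (1.25), Ctla4 (1.02), Icos (1.04), Icosl (0.64), Cd274 (0.51), Btla (1.42), Vsir (-1.67), Vtcn1 (-1.70), Cd163 (0.51), Clec5a (-3.54), Ccr7 (1.66), Traf1 (0.54), Il12a (0.85), Vav1 (-0.49), Tnfrsf14 (-0.64), Cxcr5 (2.02), Tgfb1 (-0.72), Cd74 (0.80), H2-Q10 (-4.37), Ifngr1 (-0.29), Irf7 (-1.47), Ms4a1 (1.39), Cd244 (-1.41), Vcam1 (0.32), Batf3 (-1.24), Klf4 (0.043), Pros1 (-2.60), Itgam (-2.19), Tyrobp (-1.64), Plaur (-1.25), Nlrp3 (-1.61), Ccr6 (1.32), Itgb2 (-1.07), Vegfa (-0.43), Pdgfb (-0.23) and Btg2 (-0.36). These 47 are counted among the 110 genes followed. The exchanged groups are what makes these values differ.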

Other observations

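Immediate early genes, the first to respond to a stimulus, had a median difference of 0.16 over the 13 in the table, with 2 higher at unadjusted P and 0 lower, beside 4.9% and 4.63% of all genes. With each mouse left out in turn, Nr4a2 stayed past unadjusted P in 1 of 8 fits and Btg2 in 4. Nr4a2, a nuclear receptor, had 8.32, 8.85, 8.65 and 8.56 log2 units with cells alone and 8.92, 8.90, 8.91 and 8.89 with CTLA4-Ig. Its groups did not overlap, and the difference was 0.31 (95% interval 0.00 to 0.62). Btg2, an antiproliferative gene, differed by 0.21 (0.01 to 0.40), and Dusp1, a phosphatase of MAP kinases and the most abundant of the list, by -0.19 (-0.39 to 0.02).

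Of 22 pattern recognition genes in the table, 1 was higher at unadjusted P, the inflammasome sensor Nlrp3 (0.20), and 2 were lower, Cd14 and the inflammasome adaptor Pycard (-0.69), with a median of 0.01, beside 4.9% and 4.63% of all genes. Pycard differed by -0.35 without CTLA4-Ig replicate 2 and stayed past unadjusted P in 3 of 8 fits that left out a mouse, and Nlrp3 in 1. The highest was the bacterial sensor Nod1, at 0.31 (95% interval -0.03 to 0.66). Complement genes had a median of -0.13 over 9 genes, Fc receptors -0.04 over 6 and eosinophil markers 0.00 over 7.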
